A study of Mus musculus with 14 samples.

Results

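Mouse fetal liver was compared with the embryonic fibroblasts (Fib) from which hepatic stem-like cells are converted, using the deposited counts of 4 of the 14 RNA-seq libraries of the study. Genes were tested where log2(count + 1), averaged over the 2 Fetal-Liver and 2 Fib libraries, was 3 or more, which left 15107 of 28022 genes. Both groups came from C57BL/6J mice and carried no transgene or treatment. The Fib libraries came from cultured mouse embryonic fibroblasts, which per the methods were isolated at E13.5, kept to a low passage and used to produce hepatic cells with *Oct4* and *Hnf4α*. The Fetal-Liver libraries came from whole fetal liver tissue, which the methods describe as E14.5 for tissue RNA. The comparison is therefore between a mixed organ and a cell culture, and between days of gestation that are close but not the same. Tissue, age and culture cannot be told apart in it.

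The fetal liver is at this age both the young liver and the main site of blood formation. Hepatoblasts, the common progenitors of hepatocytes and bile duct cells, secrete plasma proteins under factors such as HNF4A, PROX1 and FOXA3, while erythroblasts mature around macrophages under GATA1, TAL1 and KLF1. Fibroblasts lay down collagen matrix, pull on it through actin fibres and express the mesenchymal transcription factors that a conversion to liver has to leave behind.

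The total was 33037482 and 27632648 counts in the Fib libraries and 28673386 and 25364702 counts in the Fetal-Liver libraries. At least 1 count was present for 17564 and 17320 genes in Fib and for 18939 and 18948 genes in fetal liver. Levels are given as CPM, the counts per 1000000 counts of a library after scaling by the trimmed mean of M values (TMM), and a fold is the fitted ratio of fetal liver to Fib or its inverse. Where both libraries of a group had 0 counts, the fold is a lower bound against 3 counts per library. Where they had 1 to 3 counts in a library and no more, the ratio of the summed counts is given with an exact 95% interval, which covers counting error only. The labels number each library as replicate 1 and do not say that the 2 libraries of a group came from separate embryos or cultures, so the p-values measure only the spread between these libraries. Fewer cells of a type and less RNA per cell cannot be told apart in such bulk samples.

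The defining markers of both labels were present. *Alb* and *Afp* together with *Hba-a1* and *Hbb-bs* were among the most abundant genes of fetal liver, and *Fn1*, *Thbs1*, *Col1a2* and *Col1a1* were among those of Fib. The second Fetal-Liver library stood apart in heart and skeletal muscle transcripts, as described with the markers of other tissues. It was also higher than the first for most mesenchymal genes, with 27 of 29 collagens, 39 of 42 other matrix genes, 29 of 32 mesenchymal factors and 22 of 24 YAP and TEAD targets, and lower for 44 of 46 hepatic secreted proteins. All 4 libraries held *Xist*, which is made from the inactive X chromosome, together with Y-chromosome transcripts. *Xist* was at 2885 and 2718 CPM in Fib and 638 and 1016 CPM in fetal liver, and the Y-linked *Ddx3y* at 6.19 and 5.63 CPM in Fib and at 30.6 CPM in the first and 5.75 CPM in the second Fetal-Liver library. Of 5 tested sex-linked genes 2 were higher and 1 lower in fetal liver, and the 4 Y-linked ones were high in the first Fetal-Liver library and near the Fib level in the second. Without the first Fetal-Liver library the log2 fold change of *Ddx3y* was -0.04.

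Upstream sequence is shown for 8 genes that the results turn on, 3 of the liver, 4 of red blood cells and 1 of the fibroblasts. The sequences are from RefSeq on GRCm38.p6, run 5′ to 3′ on the strand of the gene and end at the base before its annotated start. The genes and the motif letters were chosen after the sequences had been seen. In the first set capitals mark GTTAAT, a core of the site of HNF1, and, in *Afp*, also TATAA.
Alb (chr5:90460720-90460869, plus strand): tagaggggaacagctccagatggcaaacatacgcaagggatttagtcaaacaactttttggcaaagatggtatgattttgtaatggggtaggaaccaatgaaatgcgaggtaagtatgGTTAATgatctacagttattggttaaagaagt
Afp (chr5:90490564-90490713, plus strand): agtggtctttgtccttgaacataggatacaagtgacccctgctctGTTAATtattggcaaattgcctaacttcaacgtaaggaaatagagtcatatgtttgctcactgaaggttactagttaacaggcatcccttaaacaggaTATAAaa
Serpina1b (chr12:103738190-103738339, minus strand): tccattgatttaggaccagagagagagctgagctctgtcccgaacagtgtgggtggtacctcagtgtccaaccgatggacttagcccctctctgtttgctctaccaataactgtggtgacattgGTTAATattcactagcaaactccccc
The GTTAAT began 32 bases before the start of *Alb*, 105 bases before that of *Afp* and 26 bases before that of *Serpina1b*. Searched on both strands from 250 bases before to 50 after the start, it was present in 7.1% of 32851 promoters, in 12 of 43 promoters (27.9%) of the hepatic secreted proteins, 4 of 24 (16.7%) of the hepatic transcription factors, 3 of 26 (11.5%) of the metabolic enzymes and 1 of 17 (5.9%) of the transporters. Lists of other tissues were not all lower, with 3 of 9 (33.3%) of the neural genes and 4 of 11 (36.4%) of the conversion and pluripotency factors. These shares count promoters, and a gene can have several or none in the RefSeq table.

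In the second set capitals mark GATAA, the core of GATA factor sites, or TTATC, which is the same site on the other strand, together with CACACCC, a site of the kind bound by KLF1, and TATAA on the strand of the gene.
Hba-a1 (chr11:32283472-32283671, plus strand): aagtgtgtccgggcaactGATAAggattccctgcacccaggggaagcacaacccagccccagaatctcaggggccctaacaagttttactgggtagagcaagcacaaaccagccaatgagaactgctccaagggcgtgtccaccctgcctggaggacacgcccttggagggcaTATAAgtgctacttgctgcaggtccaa
Hbb-bs (chr7:103827929-103828078, minus strand): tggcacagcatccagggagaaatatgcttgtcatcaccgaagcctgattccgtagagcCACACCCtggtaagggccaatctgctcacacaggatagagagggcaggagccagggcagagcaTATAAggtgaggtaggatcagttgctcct
Alas2 (chrX:150547267-150547416, plus strand): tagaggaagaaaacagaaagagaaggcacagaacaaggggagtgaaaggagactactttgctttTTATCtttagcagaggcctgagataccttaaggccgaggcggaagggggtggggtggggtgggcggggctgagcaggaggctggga
Klf1 (chr8:84901832-84901981, plus strand): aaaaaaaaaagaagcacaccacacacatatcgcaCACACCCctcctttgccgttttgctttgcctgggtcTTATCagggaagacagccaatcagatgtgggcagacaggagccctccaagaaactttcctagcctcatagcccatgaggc
GATAA was present in 25.4% of all promoters, in 7 of 9 promoters (77.8%) of globin genes, in 9 of 21 (42.9%) of the erythroid membrane genes, in 10 of 29 (34.5%) of the erythroid transcription factors and in 8 of 30 (26.7%) of the haem and iron genes. The 29 promoters belonged to 18 of the 20 erythroid transcription factors and the 21 to 19 of the 29 erythroid membrane genes. In the 4 liver lists its share ran from 25.0% in the transcription factors to 42.3% in the metabolic enzymes, and 8 of 13 megakaryocyte promoters (61.5%) held it. CACACCC was present in 8.0% of all promoters, in 5 of 29 (17.2%) of the erythroid transcription factors, 1 of 9 (11.1%) of the globins, 2 of 21 (9.5%) of the erythroid membrane genes and 2 of 30 (6.7%) of the haem and iron genes, beside 5 of 26 (19.2%) of the hepatic metabolic enzymes. TATAA stood in 5 of 9 globin promoters (55.6%), in 1 of 21 (4.8%) of the erythroid membrane genes and in 17.5% of all promoters.

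In the fibroblast gene *Ccn1*, a target of YAP and TEAD, capitals mark CATTCC, which is the TEAD site GGAATG on the other strand, and TATAA.
Ccn1 (chr3:145649986-145650135, minus strand): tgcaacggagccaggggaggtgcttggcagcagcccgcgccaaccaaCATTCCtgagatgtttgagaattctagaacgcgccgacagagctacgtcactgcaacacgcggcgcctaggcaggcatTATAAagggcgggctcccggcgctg
GGAATG was present in 14.7% of all promoters and in 13 of 22 promoters (59.1%) of the YAP and TEAD targets, beside 10 of 30 (33.3%) of the contractile genes and 3 of 5 (60.0%) of the mesothelial ones. These matches describe letters in the windows and were not tested for binding.

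Most genes differed between the groups. In edgeR's quasi-likelihood test with Benjamini-Hochberg adjustment, 12747 of the 15107 genes (84.4%) had an adjusted p under 0.05, of which 6571 (43.5% of those tested) were higher in fetal liver and 6176 (40.9%) were lower. A change of at least 4-fold together with that adjusted p was seen for 2392 genes (15.8%) higher and 1855 genes (12.3%) lower in fetal liver. The median log2 fold change of all genes tested was 0.053. The common coefficient of variation was 7.5%. A gene without counts in Fib passed the filter only through its level in fetal liver, and the reverse, so the counts for gene groups describe their tested members beside these shares. The plot of levels of all tested genes shows many plasma protein and globin genes at the left edge, where Fib had no counts, and matrix genes below the diagonal.

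**Figure D1:**
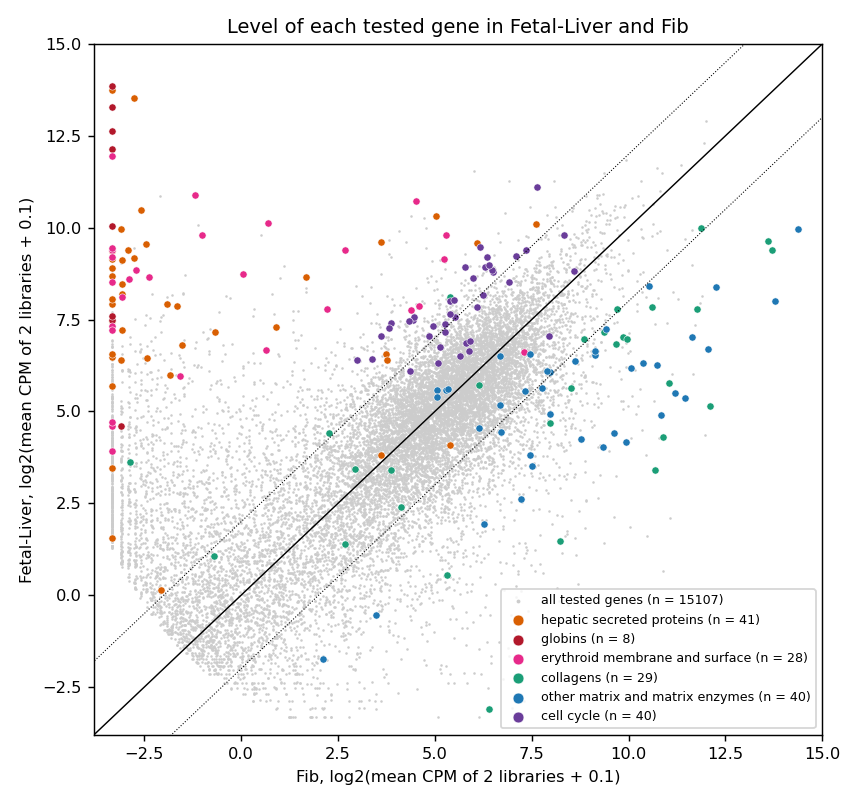
Each of the 15107 tested genes by its mean level in the 2 Fib libraries (x axis) and the 2 Fetal-Liver libraries (y axis), both as log2(CPM + 0.1), with 6 gene lists in colour, a solid line at equal levels and dotted lines at a 4-fold difference. Globins and most hepatic secreted and erythroid membrane genes lie far above the upper dotted line, most collagens and other matrix genes below the lower one, and 39 of 40 cell cycle genes above the solid line.

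Most plasma protein genes of the liver were higher in fetal liver than in Fib. Of 46 hepatic secreted proteins, 41 were tested, 39 were higher in fetal liver, 39 of them at least 4-fold, and 1 was lower. The 5 untested members were low in both groups, among them *Apoc3*, with 34 and 28 counts in fetal liver, and the hepcidin gene *Hamp*, with 8 and 5 counts. The tested members had a median log2 fold change of 12.78 as fitted and 9.87 with Fib set to 3 counts per library for the genes at or below that. Together all 46 took 0.0377% and 0.0396% of counts in Fib and 4.43% and 3.77% in fetal liver.

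*Alb*, which encodes the main plasma protein albumin, had 3 and 0 counts in the Fib libraries and 13280 and 10210 CPM in the Fetal-Liver libraries, a ratio of 234000-fold (95% counting interval 79900 to 1130000) with adjusted p = 6.1e-08. *Afp*, its fetal counterpart and neighbour on chromosome 5, had 0 and 0 counts in Fib and 14960 and 12810 CPM in fetal liver, at least 136000-fold higher with adjusted p = 6.2e-08. The groups did not overlap for either gene, and both genes were lower in the second than in the first Fetal-Liver library. Per kilobase of annotated exon, the mean fetal liver level was 5020 CPM for *Alb* and 4120 CPM for *Afp*. On a scale set over all 14 libraries, *Afp* was at 12690 and 10870 CPM in fetal liver and at 7.53 and 7.41 CPM in adult liver. Adult values on that scale are 2.46 and 2.42 times the CPM of the unscaled library totals, and fetal values 0.841 and 0.819 times, which applies to every comparison with adult liver given here.

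*Apoa1* was at 2 and 2 counts in Fib and at 1487 and 1387 CPM in fetal liver, and *Apob*, the protein of very low density lipoprotein, went from 1 and 0 counts to 1113 and 884 CPM. *Serpina1b*, an antitrypsin gene whose reads may be shared with its near-identical paralogs, had 0 and 0 counts in Fib and 710 and 602 CPM in fetal liver. Each of these genes was at or close to 0 in both Fib libraries, and no library of one group reached the other. Fibrinogen chain genes *Fga* and *Fgb* were at least 4660-fold and at least 4000-fold higher, and the prothrombin gene *F2* was at least 2590-fold higher.

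Some plasma protein genes had a clear level in fibroblasts. *Itih2*, whose product binds hyaluronan, was at 33.6 and 31.9 CPM in Fib and 1369 and 1209 CPM in fetal liver, 39.3-fold higher. The complement gene *C3* was at 66.7 and 70 CPM in Fib and 857 and 666 CPM in fetal liver (log2 fold change 3.48 ± 0.13 (SE), adjusted p = 4.7e-07), and *Apoe*, which carries lipid in many cell types, was at 185 and 205 CPM in Fib and 1139 and 1040 CPM in fetal liver, 5.59-fold higher. The haptoglobin gene *Hp*, an acute phase gene, was at 11.5 and 12.9 CPM in Fib and 14.4 and 13.3 CPM in fetal liver and did not pass the test (adjusted p = 0.17).

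Of the hepatic transcription factors, 21 of 23 were tested, with 17 higher, 16 of them at least 4-fold, and 3 lower, and a median log2 fold change of 6.98 (5.50 with low Fib values set to 3 counts). *Hnf4a*, the nuclear receptor that maintains hepatocyte identity and 1 of the 2 factors used for conversion, was at 0.155 and 0.0741 CPM in Fib and 139 and 121 CPM in fetal liver (log2 fold change 10.05 ± 0.19 (SE), adjusted p = 5.8e-08). *Prox1*, which hepatoblasts need to migrate and expand, had 1 and 1 counts in Fib and 52.7 and 48.9 CPM in fetal liver. Both were near the lower end of detection in Fib and the groups were far apart. *Hhex*, an early factor of the liver bud, was 231-fold higher, and *Gata4*, which acts in liver bud formation and in its mesenchyme, was 266-fold higher.

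The FOXA and C/EBP families were split. *Foxa3* was at 0.0619 and 0.148 CPM in Fib and 25 and 24 CPM in fetal liver, and *Foxa2* was 41.1-fold higher. *Foxa1*, of the same pioneer factor family, went the other way, with 64.3 and 68.9 CPM in Fib and 14.3 and 11.7 CPM in fetal liver (log2 fold change -2.36 ± 0.10 (SE), adjusted p = 9e-07). *Cebpa*, a driver of hepatocyte genes, rose 6.42-fold from 6.04 and 6.97 CPM to 43.5 and 39.7 CPM. *Cebpb*, which is induced by stress and growth signals in many cells, was lower in fetal liver at 4.66 and 6.74 CPM than in Fib at 18.6 and 20.7 CPM (log2 fold change -1.79 ± 0.18 (SE), adjusted p = 5.4e-05). *Rxra*, a partner of many nuclear receptors, was also lower, by 1.81-fold. No library of Fib overlapped with one of fetal liver for these genes.

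Enzymes of the mature liver were present in part. Of 36 hepatic metabolic enzymes, 20 had counts enough to be tested, 18 were higher in fetal liver and 0 were lower, while 16 were under the filter on low counts. *Otc*, of the urea cycle, was at least 436-fold higher in fetal liver. *Pklr*, the pyruvate kinase of liver and red cells, had 1 and 0 counts in Fib and 558 and 486 CPM in fetal liver. *Cps1*, the entry enzyme of the urea cycle, had 0 and 0 counts in Fib and 5.42 and 3.96 CPM in fetal liver, and on the scale of all 14 libraries it was at 4.6 and 3.36 CPM in fetal liver against 8320 and 8505 CPM in adult liver.

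The same scale placed other genes of adult metabolism near 0 in fetal liver. *Pck1*, the enzyme that commits to gluconeogenesis, was at 0.762 and 0.259 CPM in fetal liver and 2241 and 2327 CPM in adult liver. *Cyp2e1*, a drug and ethanol oxidase, was at 0.117 and 0.0323 CPM against 8604 and 8634 CPM, and *Tat*, tyrosine aminotransferase, was at 0.234 and 0.355 CPM against 4624 and 4680 CPM. These genes separated fetal from adult liver completely, and none of them was tested between fetal liver and Fib. Of 15 hepatic transporters, 12 were tested and 12 were higher in fetal liver, with a median log2 fold change of 5.18. *Slc2a2*, the glucose transporter of liver and islets, was 541-fold higher, whereas *Slc10a1*, the bile acid importer, reached 1.59 and 0.799 CPM in fetal liver beside 0.495 and 0.185 CPM in Fib, with an adjusted p of 0.015 that became 0.099 without the second Fib library. The bile canaliculus pumps *Abcc2* and *Abcb4* were at 76.1 and 62.4 CPM and at 126 and 102 CPM in fetal liver, with 3 counts or fewer in each Fib library.

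**Figure D2:**
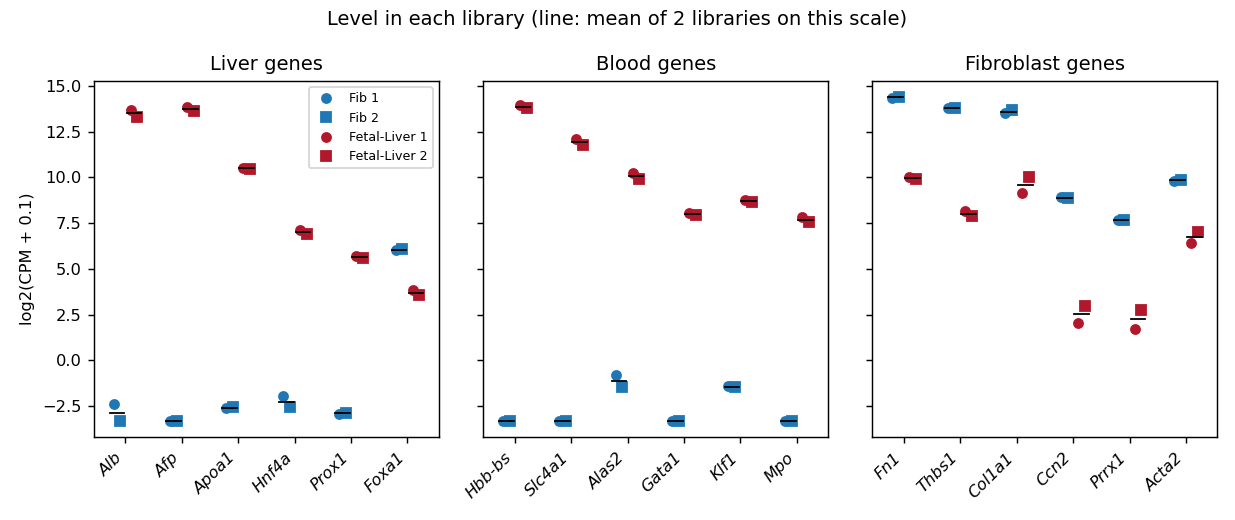
Level of 6 liver, 6 blood and 6 fibroblast genes in each of the 4 libraries as log2(CPM + 0.1), with 1 point per library, colour for the group, circles for library 1, squares for library 2 and a line at the mean of the 2 on this scale. The liver and blood genes have both Fetal-Liver points above both Fib points except *Foxa1*, the fibroblast genes have the reverse order, and the 2 Fetal-Liver libraries stand apart for *Col1a1*, *Ccn2*, *Prrx1* and *Acta2*.

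Red blood cell genes formed the other block of high fetal liver levels. All 8 tested globin genes were higher in fetal liver, 9 of the 10 globins in the table had 0 counts in both Fib libraries, and the globins together took 3.765% and 3.842% of all fetal liver counts. *Hbb-bs*, an adult beta globin, had 0 and 0 counts in Fib and 15710 and 14120 CPM in fetal liver and was the gene with most counts in that tissue. *Hba-a1*, an alpha globin, had 0 and 0 counts in Fib and 9694 and 10230 CPM in fetal liver. The adult copies *Hbb-bt* and *Hba-a2* were at 6290 and 6399 CPM and at 4297 and 4736 CPM in fetal liver, and since the adult copies of a pair are nearly identical, the division of reads between them is uncertain.

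The embryonic globins of the yolk sac lineage were lower than the adult ones but clearly present. *Hbb-y* was at 940 and 1186 CPM, *Hbb-bh1* at 189 and 197 CPM and the embryonic zeta globin *Hba-x* at 149 and 210 CPM in fetal liver. Per kilobase of exon, the mean levels ran from 19400 CPM for *Hbb-bs* over 12300 for *Hba-a1* and 1680 for *Hbb-y* to 315 for *Hbb-bh1* and 191 for *Hba-x*. All 3 embryonic globins were higher in the second than in the first Fetal-Liver library, as were the adult *Hba-a1*, *Hba-a2* and *Hbb-bt*, while *Hbb-bs* was lower.

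Of 23 genes of haem synthesis and erythroid iron handling, 20 were higher and 2 lower in fetal liver. The isoenzymes of the first step of haem synthesis were split. *Alas2*, the erythroid form, was at 0.465 and 0.26 CPM in Fib and 1196 and 959 CPM in fetal liver (log2 fold change 11.49 ± 0.23 (SE), adjusted p = 6e-08), whereas *Alas1*, the form of other tissues, was at 58.8 and 57.2 CPM in Fib and 40.9 and 42 CPM in fetal liver (log2 fold change -0.48 ± 0.06 (SE), adjusted p = 0.00025). *Cpox*, a later enzyme of the pathway, rose 37.6-fold. *Slc25a37*, the mitochondrial iron importer mitoferrin, went from 64.7 and 63.8 CPM to 3334 and 2677 CPM, and *Tfrc*, the transferrin receptor, from 22.3 and 19 CPM to 1366 and 1170 CPM, without overlap between the groups for either gene. *Steap3*, an iron reductase of endosomes, was the other member that fell (log2 fold change -1.60 ± 0.08 (SE), adjusted p = 1.4e-06).

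Of 20 erythroid transcription factors 19 were higher in fetal liver and 0 were lower. *Gata1*, the master factor of red cells and platelets, had 0 and 0 counts in Fib and 262 and 250 CPM in fetal liver, at least 2510-fold higher. *Klf1*, which activates adult beta globin, was at 0.279 and 0.26 CPM in Fib and 434 and 398 CPM in fetal liver (log2 fold change 10.57 ± 0.14 (SE), adjusted p = 4.3e-08). *Tal1* had 0 and 0 counts in Fib and 472 and 399 CPM in fetal liver, and its groups, like those of the other factors just named, did not overlap. *Ldb1*, the cofactor that joins GATA1 and TAL1 and is made in most cells, was at 303 and 325 CPM in Fib and 289 and 285 CPM in fetal liver and did not pass the test (adjusted p = 0.12).

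Of 29 erythroid membrane and surface genes, 28 were tested and 27 were higher, each at least 4-fold, with a median log2 fold change of 11.82 (9.18 with low Fib values set to 3 counts). *Slc4a1*, the anion exchanger band 3, had 0 and 0 counts in Fib and 4460 and 3433 CPM in fetal liver. *Kel*, a blood group protease, was at least 6870-fold higher, and *Car2*, a carbonic anhydrase, 5580-fold higher. *Epor*, the receptor through which erythropoietin keeps erythroblasts alive, was at 4.21 and 4.93 CPM in Fib and 226 and 213 CPM in fetal liver (log2 fold change 5.59 ± 0.10 (SE), adjusted p = 4.5e-08). *Aqp1*, a water channel that red cells share with endothelium and mesenchyme, was the member that fell, from 156 and 160 CPM to 110 and 86.7 CPM (log2 fold change -0.69 ± 0.11 (SE), adjusted p = 0.00071). Summed over the list, 28 members were lower in the second than in the first Fetal-Liver library and the sum was 0.814 times that of the first, a difference far smaller than that from Fib.

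**Figure D3:**
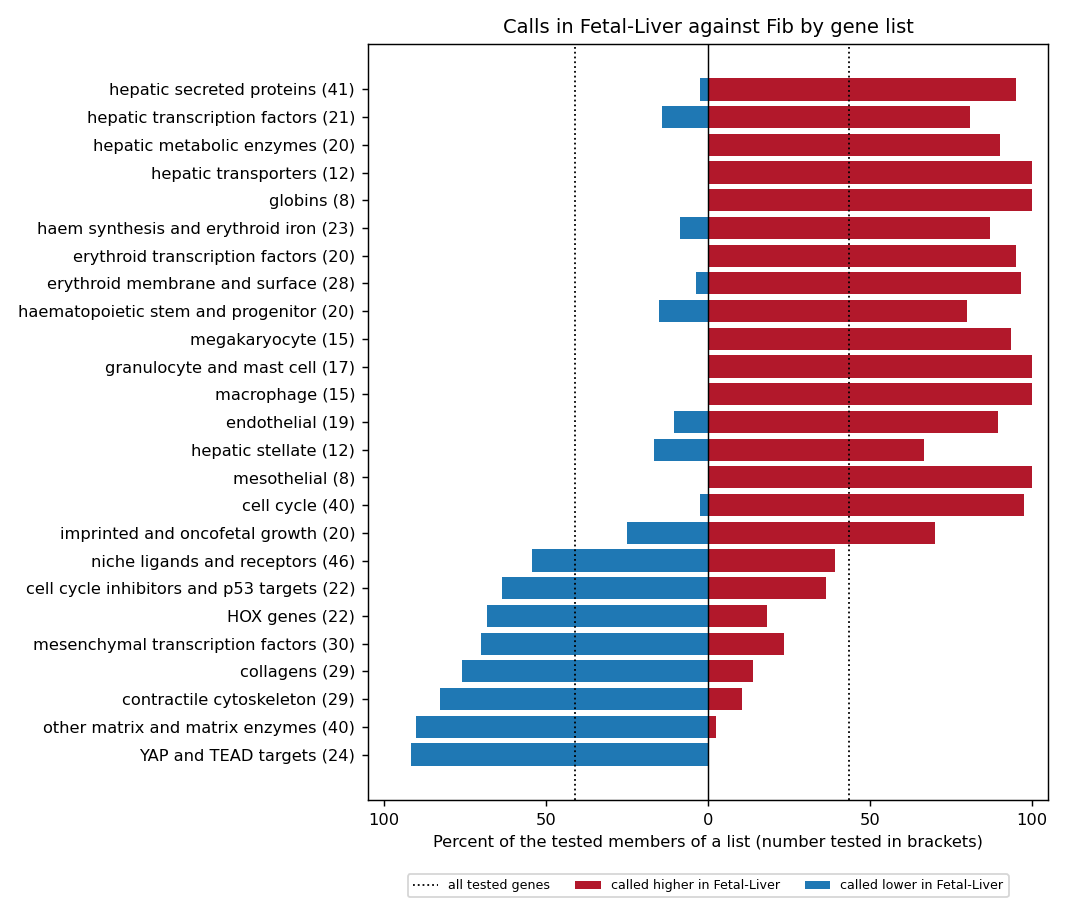
Percent of the tested members of 25 gene lists (number tested in brackets) that were higher (red, to the right) or lower (blue, to the left) in fetal liver at an adjusted p under 0.05, with dotted lines at the shares of all tested genes, 43.5% higher and 40.9% lower. Lists of liver, blood and cell cycle genes lie mostly to the right, and collagens, other matrix, contractile genes and YAP and TEAD targets mostly to the left.

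Genes of blood stem and progenitor cells were mostly higher, with 16 of 20 higher and 3 lower. *Kit*, the stem cell factor receptor, had 2 and 0 counts in Fib and 76.6 and 65.4 CPM in fetal liver. *Ptprc*, the pan-leukocyte marker CD45, was 262-fold (95% counting interval 102 to 965) higher. *Cd34*, which fibroblasts also express, rose 5.35-fold from 7.99 and 6.49 CPM to 38.2 and 39.7 CPM.

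The 3 members that fell are transcription factors of stem cells that fibroblasts expressed at higher levels. *Runx1* was at 86.8 and 86.3 CPM in Fib and 25.3 and 26.4 CPM in fetal liver (log2 fold change -1.74 ± 0.06 (SE), adjusted p = 4.1e-07). *Mecom* was at 132 and 127 CPM in Fib and 6.6 and 9.18 CPM in fetal liver (log2 fold change -4.04 ± 0.13 (SE), adjusted p = 2.4e-07), and *Gata2* at 26.4 and 26.9 CPM in Fib and 15.6 and 12.7 CPM in fetal liver (log2 fold change -0.91 ± 0.11 (SE), adjusted p = 0.00018). All 3 had both fetal libraries below both Fib libraries. Their order between the groups was the opposite of that of *Kit*.

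Most tested markers of mature blood lineages other than red cells and lymphocytes were higher in fetal liver. Of the granulocyte and mast cell genes 17 of 17 tested were higher, of the megakaryocyte genes 14 of 15, and of the macrophage genes 15 of 15. Over all tested genes 43.5% were higher. In these lists 14, 9 and 9 of the tested members had 3 counts or fewer in both Fib libraries. Those members passed the filter only through fetal liver, so their direction was fixed by it. *Mpo*, the myeloperoxidase of granulocyte precursors, was at least 2030-fold higher at 226 and 188 CPM in fetal liver. *Pf4*, platelet factor 4, was at 117 and 104 CPM, and the macrophage receptor *Marco* and the complement gene *C1qb* were at 83.9 and 71.2 CPM and at 55.2 and 53.6 CPM, all with 3 counts or fewer in each Fib library.

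Lymphoid markers gave few values, as 5 of 15 passed the filter, with 2 higher and 2 lower. *Ebf1*, a B cell factor that mesenchymal cells also make, was at 40.8 and 41.3 CPM in Fib and 0.795 and 1.33 CPM in fetal liver, and *Thy1*, a marker shared by T cells and fibroblasts, was 15.4-fold lower. *Cd79b*, of the B cell receptor, was at least 29.3-fold higher.

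Signals between the liver niche and blood cells were examined as ligands and their receptors. Of 46 tested genes of this kind, 18 were higher (39.1%) and 25 lower (54.3%) in fetal liver, beside 43.5% and 40.9% of all genes. Their median log2 fold change was -1.20. For several pairs the receptor was higher in fetal liver while the ligand was higher in Fib. The ligand *Kitl*, stem cell factor, was at 109 and 105 CPM in Fib and 51.7 and 42.4 CPM in fetal liver (log2 fold change -1.18 ± 0.10 (SE), adjusted p = 1.8e-05), opposite to its receptor gene *Kit*.

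*Csf1*, the growth factor of macrophages, was 14.7-fold lower in fetal liver, at 367 and 380 CPM in Fib and 25.2 and 25.6 CPM in fetal liver. Its receptor gene *Csf1r* was 79.1-fold higher, at 1.02 and 1.04 CPM in Fib and 86.9 and 76.6 CPM in fetal liver. The same held for the chemokine *Cxcl12*, which retains stem cells in their niche and fell from 3350 and 3324 CPM to 161 and 163 CPM, and its receptor gene *Cxcr4*, which rose from 1.15 and 1.04 CPM to 8.33 and 7.04 CPM. *Angpt1*, a vessel-stabilising ligand, was 9.92-fold lower and its endothelial receptor gene *Tek* 9.48-fold higher.

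Hepatocyte growth factor and its receptor had the reverse order. *Hgf* was at 4.34 and 4.15 CPM in Fib and 6.77 and 6.13 CPM in fetal liver (log2 fold change 0.60 ± 0.15 (SE), adjusted p = 0.0071), and *Met*, which hepatoblasts and many cultured cells express, was at 204 and 191 CPM in Fib and 35.9 and 36.1 CPM in fetal liver (log2 fold change -2.46 ± 0.07 (SE), adjusted p = 1.2e-07). The call of *Hgf* was lost without either Fib library, with an adjusted p of 0.051 without the first and 0.065 without the second. *Thpo*, the liver's own hormone for megakaryocytes and stem cells, rose from 1.92 and 1.78 CPM to 7.12 and 6.59 CPM (log2 fold change 1.88 ± 0.17 (SE), adjusted p = 3.3e-05). *Epo* had 0 and 0 counts in Fib and 16 and 22 counts in fetal liver, which left it under the filter and without a test.

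Among the other receptors, *Fgfr4*, the FGF receptor of hepatocytes, rose 92.8-fold from 0.155 and 0.334 CPM to 22.6 and 22.2 CPM. *Osmr*, the oncostatin M receptor, was nearly absent from fetal liver at 0.829 and 1.26 CPM beside 290 and 281 CPM in Fib. *Lgr5*, which amplifies WNT signals in stem cells, was also higher in Fib at 328 and 316 CPM than in fetal liver at 8.22 and 10.5 CPM. *Igf1r*, the receptor of both insulin-like growth factors, was at 162 and 161 CPM in Fib and 67 and 72.5 CPM in fetal liver, higher in Fib like *Met*. *Vegfa* was nearly level, at 58.9 and 63.4 CPM in Fib and 70.7 and 68.8 CPM in fetal liver (log2 fold change 0.19 ± 0.07 (SE), adjusted p = 0.03), and its call was lost without either Fib library, with an adjusted p of 0.23 without the first and 0.063 without the second.

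**Figure D4:**
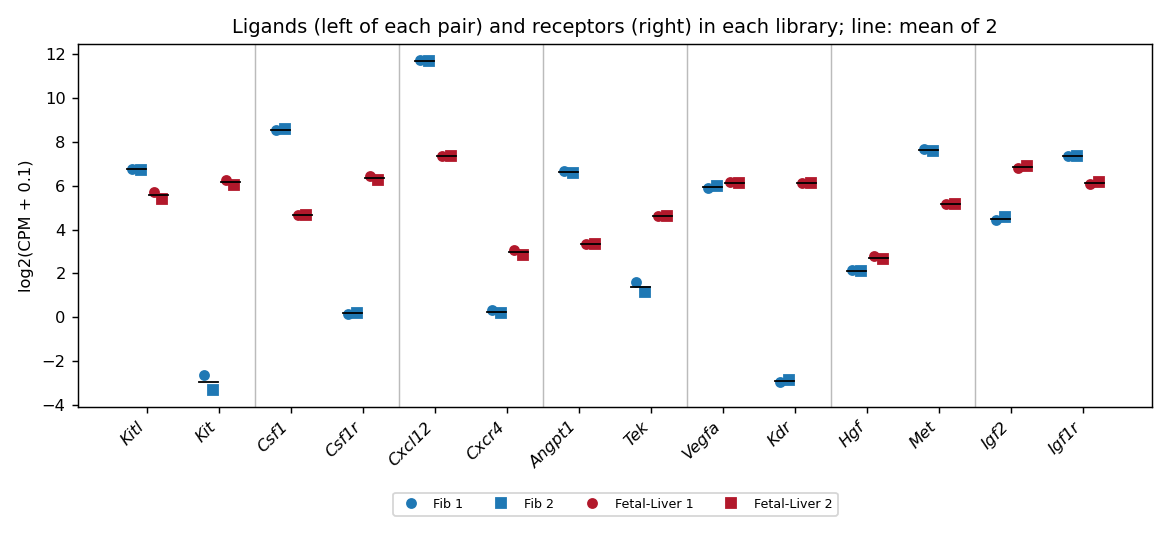
Level in each library as log2(CPM + 0.1) of 7 ligand genes (left of each pair) and the genes of their receptors (right), with 1 point per library, colour for the group and a line at the mean of the 2 libraries. *Kitl*, *Csf1*, *Cxcl12* and *Angpt1* are lower and *Kit*, *Csf1r*, *Cxcr4* and *Tek* higher in fetal liver, and *Hgf* and *Igf2* are higher and *Met* and *Igf1r* lower.

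Endothelial genes were higher in fetal liver for 17 of 19 tested members and lower for 2. *Kdr*, the main VEGF receptor, had 1 and 1 counts in Fib and 70 and 69.2 CPM in fetal liver, and *Cdh5*, the cadherin of endothelial junctions, had 0 and 1 counts in Fib and 67.1 and 71.7 CPM in fetal liver. The scavenger receptor *Stab2* and the hyaluronan receptor *Lyve1*, both typical of sinusoidal endothelium, rose 50.8-fold and 437-fold. *Erg*, an endothelial factor that cartilage and other mesenchyme also express, fell from 39.3 and 40.5 CPM to 10 and 9.94 CPM (adjusted p = 5.8e-07), and *Ramp2*, part of the adrenomedullin receptor, was the other lower member.

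Cells at the border of liver and mesenchyme were represented by stellate, mesothelial and epithelial lists. Of 12 hepatic stellate genes 8 were higher and 2 lower in fetal liver, and their summed level was 956 and 986 CPM in Fib and 512 and 510 CPM in fetal liver. The lower sum in fetal liver came from *Pdgfrb*, a growth factor receptor that fibroblasts also make, at 601 and 626 CPM in Fib and 45.5 and 62.1 CPM in fetal liver, and without it the other 11 summed to 355 and 360 CPM in Fib and 467 and 448 CPM in fetal liver. All 8 mesothelial genes were higher in fetal liver, with sums of 2.39 and 2.74 CPM in Fib and 251 and 283 CPM in fetal liver. *Podxl*, which other epithelia and vessels also make, had 188 and 190 CPM of that in fetal liver, and the other 7 summed to 63.4 and 92.6 CPM there. *Wt1*, a factor of mesothelium, had 1 and 0 counts in Fib and 12.2 and 18.6 CPM in fetal liver. Of 16 tested biliary and epithelial genes 13 were higher and 3 lower.

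The keratin genes *Krt8* and *Krt18*, which hepatoblasts and bile duct cells share, were 6460-fold (95% counting interval 1160 to 255000) and at least 838-fold higher in fetal liver. *Cdh1*, E-cadherin, was present in both groups, at 65.6 and 65.6 CPM in Fib and 84.7 and 72 CPM in fetal liver (log2 fold change 0.26 ± 0.09 (SE), adjusted p = 0.026), and its call was lost without either Fib library (adjusted p = 0.13 for each). *Sox9* and *Spp1*, which mark bile duct progenitors but also cartilage and bone, were 23.4-fold and 62-fold higher in Fib.

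The fibroblast side of the comparison was led by matrix genes. Collagens took 4.8% and 5.08% of counts in Fib and 0.348% and 0.55% in fetal liver, and other matrix genes and matrix enzymes took 6.58% and 6.63% in Fib and 0.339% and 0.432% in fetal liver. Of 29 collagen genes 22 were lower in fetal liver, 17 of them at least 4-fold, and 4 were higher, with a median log2 fold change of -2.82. Of 40 tested other matrix genes 36 were lower and 1 was higher, *Fbln1*, whose adjusted p was 0.026 and rose to 0.11 without the first and 0.13 without the second Fib library. The count of higher members was 4 without the first Fetal-Liver library.

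*Fn1*, fibronectin, was the gene with most counts in Fib, at 21020 and 21310 CPM in Fib and 1022 and 977 CPM in fetal liver (log2 fold change -4.40 ± 0.10 (SE), adjusted p = 6.7e-08). *Thbs1*, thrombospondin, was at 14000 and 14280 CPM in Fib and 284 and 235 CPM in fetal liver, 54.5-fold lower in fetal liver. *Col1a1*, of type I collagen, was at 11900 and 12900 CPM in Fib and 565 and 1025 CPM in fetal liver (log2 fold change -3.96 ± 0.28 (SE), adjusted p = 8.3e-06), and *Col3a1*, of type III collagen, fell less, from 3679 and 3852 CPM to 783 and 1235 CPM. None of these genes overlapped between the groups, but both collagens were higher in the second than in the first Fetal-Liver library, as were 27 of the 29 collagens.

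The 4 members of the collagen list that rose were not fibril formers. *Col18a1*, the basement membrane collagen that gives rise to endostatin, was at 40.1 and 44.2 CPM in Fib and 283 and 273 CPM in fetal liver (log2 fold change 2.72 ± 0.08 (SE), adjusted p = 1.3e-07). The transmembrane collagens *Col13a1*, *Col17a1* and *Col25a1* were the other members of that list that rose, and *Col13a1* had 0 and 2 counts in Fib and 9.5 and 15.1 CPM in fetal liver.

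Part of the matrix of the Fib libraries was of the cartilage kind. Of 8 tested cartilage genes 6 were lower in fetal liver and 1 was higher, and the summed level was 1876 and 2078 CPM in Fib and 55.4 and 84.4 CPM in fetal liver. *Col2a1*, the main cartilage collagen, was at 1538 and 1725 CPM in Fib and 4.91 and 16.2 CPM in fetal liver (log2 fold change -7.28 ± 0.50 (SE), adjusted p = 7.1e-06), and *Cnmd*, chondromodulin, at 1333 and 1298 CPM in Fib and 0.0691 and 0.381 CPM in fetal liver. *Col10a1*, of hypertrophic cartilage, had 2619 and 2372 counts in Fib and 1 and 0 counts in fetal liver. Both Fib libraries held these transcripts at like levels, and their part in the other differences was not tested. *Col9a2*, a minor cartilage collagen, was the member that was higher in fetal liver, at 30.1 and 41.5 CPM beside 3.1 and 2.78 CPM in Fib.

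Mesenchymal transcription factors were lower in fetal liver for 21 of 30 tested members and higher for 7. Within fetal liver 29 of all 32 members were higher in the second library than in the first, with sums of 263 and 337 CPM. *Prrx1*, a factor of limb and trunk mesenchyme, was at 206 and 206 CPM in Fib and 3.21 and 6.74 CPM in fetal liver, and *Twist1*, a driver of mesenchymal state, at 48.6 and 52.6 CPM in Fib and 1.49 and 4.76 CPM in fetal liver. *Tbx15* and *Foxd1*, which pattern trunk and limb mesenchyme, were 377-fold and 408-fold higher in Fib, and *Runx2*, of bone cells, 31.7-fold. Among the members that rose, *Tcf21* was at least 154-fold higher in fetal liver and *Tbx5*, with 0 and 0 counts in Fib, was at 1.21 and 7.16 CPM. *Tbx5* is also a heart gene. Like most of the 32 members it was higher in the second Fetal-Liver library, and the part of heart transcripts in its level was not tested.

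The HOX genes were lower in fetal liver for 15 of 22 tested members and higher for 4. Their sum was 165 and 165 CPM in Fib and 40.9 and 66 CPM in fetal liver, where 24 of 39 members were higher and 7 lower in the second library than in the first. *Hoxd8* and *Hoxa3* were 20.6-fold and 10.6-fold higher in Fib. The 4 that rose included *Hoxc4*, with 1 and 2 counts in Fib and 88 and 127 counts in fetal liver, its neighbour *Hoxc5* and the blood progenitor gene *Hoxa9*, which was 7.73-fold higher.

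Genes of contraction and of the YAP response, which answer to tension on the cell, were mostly higher in Fib. Of 29 contractile genes 24 were lower in fetal liver and 3 higher, and of 24 tested YAP and TEAD genes 22 were lower and 0 were higher, or 2 without the first Fetal-Liver library. The median log2 fold change was -1.59 for the contractile genes and -2.31 for the YAP and TEAD genes. *Acta2*, smooth muscle actin, was at 900 and 936 CPM in Fib and 84.8 and 131 CPM in fetal liver (log2 fold change -3.09 ± 0.20 (SE), adjusted p = 4.9e-06), and *Vim*, the intermediate filament vimentin, at 3613 and 3757 CPM in Fib and 220 and 275 CPM in fetal liver. *Actb*, the actin of all cells, was nearly level at 1768 and 1805 CPM in Fib and 2032 and 2076 CPM in fetal liver (adjusted p = 0.042, or 0.25 without the first and 0.19 without the second Fib library).

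*Ccn1*, whose upstream sequence is shown above with its TEAD site, was at 600 and 593 CPM in Fib and 14.9 and 17.7 CPM in fetal liver (log2 fold change -5.19 ± 0.10 (SE), adjusted p = 6.1e-08). *Ccn2*, connective tissue growth factor, was at 490 and 462 CPM in Fib and 4.04 and 7.77 CPM in fetal liver (log2 fold change -6.34 ± 0.24 (SE), adjusted p = 4.4e-07). Both had all fetal values far below those of Fib. *Ankrd1*, a target shared with heart muscle, was at 0.836 and 0.964 CPM in Fib and 0.864 and 7.16 CPM in fetal liver, with only the second fetal library high, and did not pass the test (adjusted p = 0.053). Without that library its log2 fold change was -0.04. *Yap1* and *Tead1* themselves were 2.94-fold and 6.2-fold lower in fetal liver.

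Fetal liver carried more proliferation transcripts than the cultured fibroblasts. Of 40 cell cycle genes 39 were higher and 1 was lower, with a median log2 fold change of 2.28 beside 0.053 over all genes tested. *Mki67*, which is made in cycling cells, was at 199 and 195 CPM in Fib and 2410 and 2021 CPM in fetal liver (log2 fold change 3.49 ± 0.11 (SE), adjusted p = 2.2e-07), and the replication licensing genes *Mcm5* and *Cdt1* rose 8.96-fold and 11.6-fold. *Ccnd2*, a D cyclin that answers to growth signals, was the member that fell (log2 fold change -0.90 ± 0.09 (SE), adjusted p = 5e-05). Replication-dependent histone genes, whose transcripts mostly lack a poly(A) tail, had low counts, and of 8 tested 4 were higher and 1 lower.

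Of 22 cell cycle inhibitors and p53 targets 14 were lower in fetal liver and 8 higher. *Cdkn2a*, of the INK4A and ARF inhibitors that accumulate in cultured fibroblasts, had 2219 and 1978 counts in Fib and 0 and 0 counts in fetal liver, at least 652-fold lower. Its neighbour *Cdkn2b* was 214-fold lower, and *Cdkn1a*, the p53 target p21, was at 100 and 108 CPM in Fib and 8.81 and 11 CPM in fetal liver. *Cdkn1c*, the imprinted inhibitor p57, went the other way and rose 14.3-fold from 11.4 and 11.9 CPM to 143 and 190 CPM.

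Of 20 imprinted and oncofetal genes 14 were higher and 5 lower in fetal liver. *H19*, the imprinted RNA beside *Igf2*, was at 3907 and 3925 CPM in Fib and 5157 and 5041 CPM in fetal liver (log2 fold change 0.38 ± 0.08 (SE), adjusted p = 0.0032), close to level between the groups, and its adjusted p was 0.065 without the first and 0.06 without the second Fib library. *Igf2* itself rose from 21.2 and 23.4 CPM to 111 and 118 CPM. *Dlk1*, a surface marker of hepatoblasts, rose 11.9-fold from 105 and 120 CPM to 1317 and 1361 CPM, while *Peg3* fell from 3212 and 3149 CPM to 462 and 555 CPM. *Lin28b*, which keeps fetal timing in blood progenitors and liver, had 0 and 1 counts in Fib and 72.8 and 63.1 CPM in fetal liver.

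Of 24 integrin genes with *Cd44* 13 were higher (54.2%) and 10 lower (41.7%) in fetal liver, beside 43.5% and 40.9% of all genes. The leukocyte integrins *Itgal* and *Itgb2* rose 185-fold and 146-fold, and *Itga4*, which binds VCAM1 in blood cell niches, rose from 2.48 and 2.82 CPM to 239 and 185 CPM. The collagen receptors *Itga1* and *Itga11* were 9.15-fold and 63.1-fold lower, and *Itgb1*, the beta chain shared by most of them, fell from 1218 and 1150 CPM to 365 and 382 CPM. *Itga5*, of the fibronectin receptor, was at 106 and 116 CPM in Fib and 96.8 and 107 CPM in fetal liver and did not pass the test (adjusted p = 0.17).

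Other genes were among the 15 with the largest difference in mean CPM in a direction. *Gpx1*, a peroxidase abundant in red cells and liver, rose 20.8-fold from 116 and 123 CPM to 2553 and 2419 CPM, and the ribosomal protein genes *Rps2* and *Rpsa* rose 9.09-fold and 4.28-fold. Reads of ribosomal protein genes may be shared with their many pseudogenes. Among those higher in Fib, *Igfbp2*, which binds insulin-like growth factors, was at 3834 and 4232 CPM in Fib and 15.3 and 25.1 CPM in fetal liver, and *Igfbp5* at 3763 and 3810 CPM in Fib and 167 and 400 CPM in fetal liver. Among the 15 genes with the largest fall in the fitted log2 fold change, the inflammatory pentraxin *Ptx3* and the WNT ligand *Wnt16* were 1310-fold and 4420-fold lower in fetal liver, and *Zic1*, a patterning factor of neural and trunk tissue, had 3993 and 3465 counts in Fib and 0 and 1 counts in fetal liver.

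Of genes commonly used as references, *Gapdh* was at 214 and 214 CPM in Fib and 854 and 808 CPM in fetal liver, 3.88-fold higher, and *Hprt* was 3.27-fold higher. Of 12 such genes 7 were higher, 3 were lower, none by 4-fold, and 2 did not pass the test, a share of calls like that over all genes (84.4%). *Actb*, given above with the contractile genes, was the closest to level of those named here.

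Markers of heart and skeletal muscle were low in summed level in fetal liver and uneven between its 2 libraries. Cardiac genes summed to 23.3 and 153 CPM in the Fetal-Liver libraries and 12.3 and 14.5 CPM in Fib, and all 8 were higher in the second Fetal-Liver library. *Myh6*, the atrial myosin, had 126 and 1923 counts in fetal liver, 1 and 0 counts in Fib and 0 CPM in adult liver. *Tnnt2*, cardiac troponin T, was at 6.88 and 35.3 CPM in fetal liver. Of 6 tested cardiac genes 5 were higher in fetal liver and 1 lower, *Tnni3*, which Fib held at 11.8 and 13.6 CPM and whose adjusted p of 0.013 became 0.066 without the first and 0.087 without the second Fib library. The *Myh6* level of the first library was a small fraction of that of the second, but it was still above both Fib libraries.

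Skeletal muscle genes summed to 47.2 and 116 CPM in fetal liver and 2.38 and 2.37 CPM in Fib, with all 11 higher in the second Fetal-Liver library. Without *Des*, which is also in the stellate list, the other 10 summed to 27.1 and 83.9 CPM in fetal liver. Gut, pancreas and lung genes summed to 25.7 and 30 CPM in fetal liver. Neural and neural crest genes summed to 95.8 and 124 CPM in fetal liver and 35.3 and 38.1 CPM in Fib. Without *Nes* the other 11 summed to 40.9 and 43.8 CPM in fetal liver and 13.1 and 14.8 CPM in Fib. Of the tested members 6 of 6 skeletal muscle genes, 7 of 10 neural genes and 3 of 4 gut, pancreas and lung genes were higher in fetal liver. *Barx1*, a factor of stomach mesenchyme, had 0 and 0 counts in Fib and 8.15 and 9.67 CPM in fetal liver. It was at like levels in the 2 fetal libraries. Of the 15107 genes, 144 (0.95%) differed more than 2-fold between the Fetal-Liver libraries, and 136 of them were higher in the second. The part of these transcripts in the differences from Fib was not tested.

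**Figure D5:**
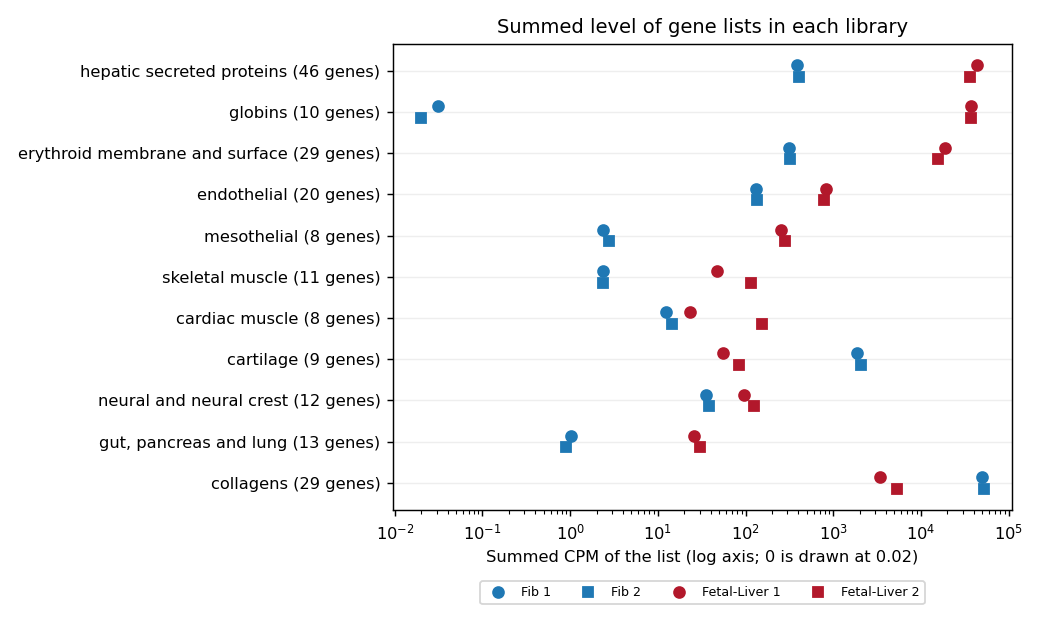
Summed CPM of the members of 11 gene lists in the 4 libraries on a log axis, on which 0 is drawn at 0.02, with 1 point per library, colour for the group, circles for library 1 and squares for library 2. The 2 Fetal-Liver points lie close together for liver and blood lists and apart for cardiac muscle, at 23.3 and 153 CPM, and for skeletal muscle, at 47.2 and 116 CPM.

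The endogenous genes behind conversion were low in the starting cells. Beside *Hnf4a*, described above, *Pou5f1*, which encodes OCT4, had 0 counts in all 4 libraries. *Klf4* was 3.17-fold lower in fetal liver than in Fib, and *Nanog* was 22.4-fold (95% counting interval 7.35 to 111) lower. Of 9 conversion and pluripotency genes 4 were tested, 2 were higher and 2 lower.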

How the data were processed

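The study sequenced 14 mouse RNA-seq libraries in 7 groups, of which the 2 Fib and 2 Fetal-Liver libraries were used here, grouped by their labels. According to the methods, the authors read 150 bp pairs, aligned them with HISAT2 to GRCm38, used Cufflinks and made counts per gene with HTSeq, and the submitters' processing notes also name Trimmomatic 0.36. The deposited values are raw counts for 28022 genes by symbol. The other versions and the handling of strand and of multi-mapping reads are not given in the sources used here, so copies of near-identical genes are uncertain.

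Genes whose log2(count + 1) averaged 3 or more over the 4 libraries entered a quasi-likelihood test in edgeR 4.0.16 (R 4.3.3), with TMM scaling and Benjamini-Hochberg adjustment over all 15107 genes. A call is an adjusted p under 0.05. Counts were also simulated on 15107 genes with 200 of them changed, means pooled over both groups and a spread shared by them. There, 85% of genes with a simulated log2 fold change of 1 and 98% of those with 2 were recovered. Of the calls made there, 4.7% were false. Most real genes were called and many had no counts in 1 group, so these rates need not hold for the real calls. The CPM values were computed here from TMM-scaled library sizes. Positions of 27619 genes (98.6%) and exon lengths came from GENCODE on GRCm38.

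The comparison and 37 gene lists were chosen with earlier results of these data known. The lists have 796 entries for 773 distinct genes, of which 768 were in the table. Named genes are the defining markers, the most abundant members and the members that led or went against their list, together with the genes of largest change; the few others were chosen after their values were seen. Alternatives were other scalings, other filters, DESeq2 1.42.0, a test against a log2 fold change of 1, all 14 libraries, the replicate number as a block and each library left out. Deviations of library 1 from its group mean correlated at 0.07 between the groups over the tested genes. This single value cannot exclude that the numbers in the titles pair the libraries. The libraries of a group differed beyond sampling noise. The tests were two-sided. A few list members are counted but not named.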

Additional observations from a re-analysis of the deposited data

How the results depend on the processing

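The genes called numbered 12747, and under 12 of the 13 alternatives the count stayed within 1.5 times of that. It was 6892 in a test against a log2 fold change of 1, whose calls were all among the 12747, because that test asks for more than a difference from 0. Leaving out a library gave 11400 to 13144 calls, and 4150 to 4441 calls of at least 4-fold beside 4247. The filter set the count of large changes most, with 5834 without a filter and 2961 at a mean of at least 5. With the replicate number as a block there were 12746 calls and 4255 of at least 4-fold. Total counts without TMM moved the split to 6841 higher and 5923 lower. No gene called in both changed sign under any alternative. *Ankrd1* (log2 fold change -0.04 without the second Fetal-Liver library) and *Ddx3y* (-0.04 without the first) reversed, and neither was called with all 4 libraries. *Ddx3y* was at 2.37 without the second Fetal-Liver library. The Wald test of DESeq2 gave 11998 calls and did not call *Vegfa* (adjusted p = 0.07) or *Tnni3* (0.085). The common coefficient of variation was 11% without a Fib library and 3.1% without a Fetal-Liver library, so calls without a Fetal-Liver library assume that it varies like Fib. At these depths a gene with 0 counts in a library may still be present at up to 3 counts.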
